A study of Rattus norvegicus with 8 samples.

Results

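The interferon regulatory factors are a family of transcription factors that switch antiviral and immune genes on or off. They were followed here in rat brain through 6 genes (Irf1, Irf2, Irf3, Irf5, Irf7 and Irf8), chosen by gene symbol alone. The array annotation names 8 probe sets with one of these symbols and no other, 3 for Irf2 and 1 for each of the other genes. These are 6 of the 14217 genes that the annotation names in this way. A further family gene, Irf9, is given with the interferon relay.

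The brain tissue came from adult male rats of the Wistar strain, with 1 array per sample. In 1 group of 4 arrays, 5 µl with 50000000 particles of a baculovirus vector had been injected into the striatum at 2 sites, after inactivation with ultraviolet light of 254 nm for 1 hour. Baculoviruses are insect viruses used as gene transfer vectors. The other 4 arrays read striatum injected with phosphate-buffered saline (PBS) in the same volume, and all tissue was taken 48 hours after injection. The PBS side was the contralateral striatum per the design text, which counts 7 rats, and the labels do not tie arrays to animals. It is not stated how many of these rats gave the 8 arrays. With at most 7 rats some arrays would share an animal, and each baculovirus array could share one with a PBS array. The p-values therefore measure only the spread between these samples. The needle injury is common to both groups, and no uninjected brain was analysed here. A PBS side contralateral to the vector lies in a brain that also received the vector. Any effect of the vector on the other side would be common to both groups as well, and was not tested.

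All members of the family bind DNA through a similar domain, which recognises response elements built around repeats of GAAA. Irf3 is made constantly and is switched on by phosphorylation after viral nucleic acid is sensed, while Irf7 is itself induced by interferon and amplifies the response. Irf1 is induced by interferon gamma, Irf2 can oppose it at the same DNA elements, Irf5 acts below the adaptor MyD88, and Irf8 works with PU.1 in myeloid cells, including microglia, the macrophages of the brain. A transcript level does not report phosphorylation.

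The values are linear intensities of a 3'-biased expression array, scaled to a common level on each array. Testing was limited to the 18625 probe sets with a mean above a level equal to an intensity of 25.98, among them 1 for each of the 6 members. Array medians lay between 5.74 and 5.85 on the log2(intensity + 16) scale, and arrays correlated at r between 0.970 and 0.986 across the tested probe sets. The striatal neuron marker Ppp1r1b was between 976 and 1393 on every array, and the T cell receptor gene Cd3d between 1.04 and 9.39. Other genes of that receptor were brighter on average, up to 27.0 on baculovirus replicate 1, and also below the level for testing. On PBS replicate 4 the choroid plexus marker Ttr was at 47.7, against 1563 to 1968 on the other 7 arrays. Beta-actin is read near both ends of its transcript, and its 3' minus 5' signal in log2 units, a sign of RNA quality and labelling, was 0.364, 0.507, 0.402 and 0.722 for baculovirus replicates 1 to 4. It was 0.567, 0.624, 0.460 and 0.408 for PBS replicates 1 to 4. The same signal for the control gene GAPDH was -0.106, -0.0384, -0.104 and -0.0498 for baculovirus replicates 1 to 4. For PBS replicates 1 to 4 it was -0.0360, -0.0477, -0.0817 and -0.0825.

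The comparison asks how the family's transcripts stand after the inactivated vector, against striatum injected with PBS. No member passed an adjusted p of 0.05 in limma, and 0 of the 6 were under an unadjusted p of 0.05. Over all tested probe sets 0% passed, and 6.73% were under the unadjusted level in either direction. The methods' t-test also called 0 members, before and after adjustment. With 1 array left out, Irf7 (without baculovirus replicate 4) and Irf5 (without PBS replicate 4) went under the unadjusted level, and neither passed. Under that level were 1134 of 18625 tested probe sets without baculovirus replicate 4 and 1957 without PBS replicate 4. For 5 of the 6 members the mean was higher after inactivated baculovirus and for 1 it was lower, with a median log2 fold change of 0.11. Among all tested probe sets 53.7% had a higher mean, and the median was 0.01. The groups overlapped for all 6 members, where 3.86% of tested probe sets had groups that did not overlap. What separated the members was the spread between arrays of the same group, which was widest for Irf7 and narrowest for Irf3.

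**Figure D1:**
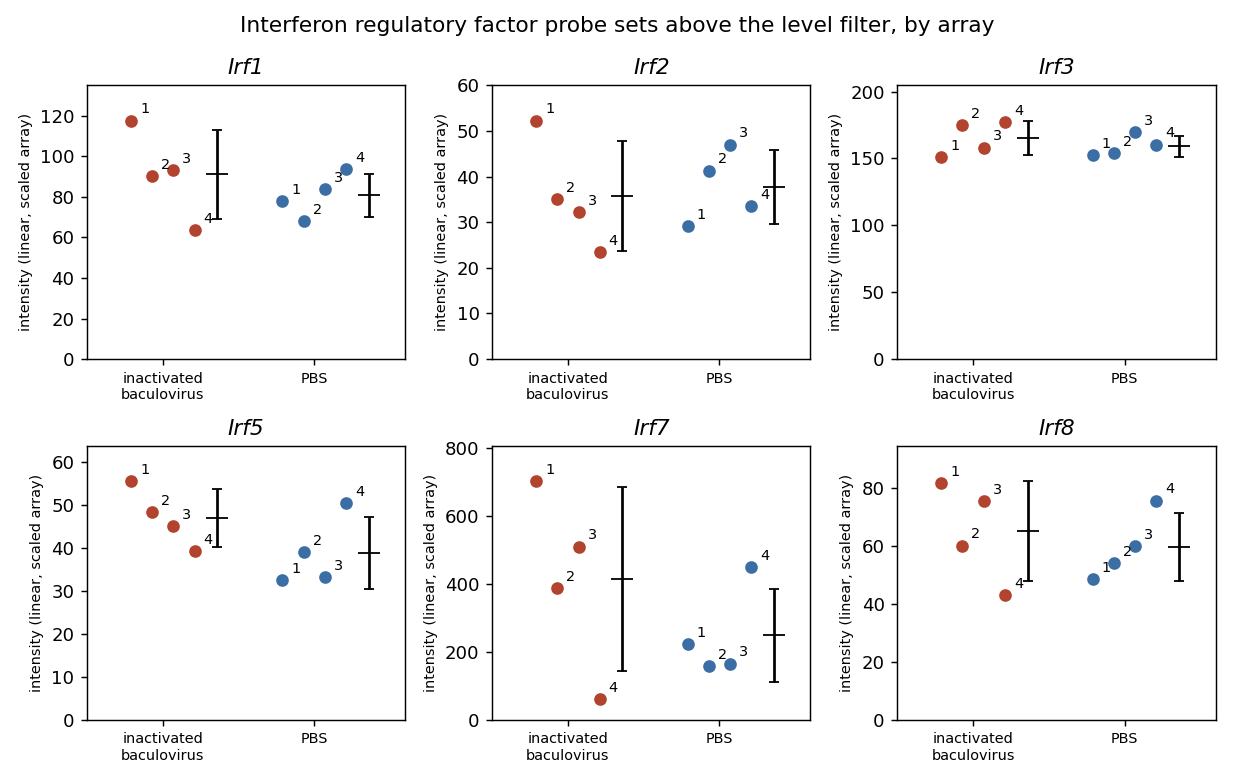
Intensity (linear scale, y axis from 0) of the tested probe set of each member on every array. Points are arrays numbered by replicate, and the bar beside each group is its mean with 1 SD (n = 4). The groups overlap in every panel, and Irf7 runs from 59.8 to 701 among the baculovirus arrays.

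Irf7, the amplifier of the type I interferon response, had intensities of 701, 386, 509 and 59.8 on baculovirus replicates 1 to 4. On PBS replicates 1 to 4 it had 223, 157, 165 and 449. Baculovirus replicate 4 was therefore below every PBS array, and PBS replicate 4 was above baculovirus replicate 2, while baculovirus replicates 1 and 3 were above all PBS arrays. The baculovirus arrays averaged 414 ± 269 and the PBS arrays 249 ± 137 (SD, n = 4 each). For Irf7 the log2 fold change came to 0.43 ± 0.54 (SE, 95% interval -0.73 to 1.59, limma adjusted p = 0.889). In linear terms this interval runs from 0.602-fold to 3.02-fold on the scale with 16 added, which includes no change.

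The array that is left out decides the size for Irf7. Without baculovirus replicate 4 the log2 fold change was 1.13 ± 0.28 (SE, limma adjusted p = 0.738), and without PBS replicate 4 it was 0.74. It was 0.05 without baculovirus replicate 1, 0.20 without baculovirus replicate 3 and 0.27 without PBS replicate 2. The direction was kept in all 20 alternatives, with adjusted p of 0.659 or above.

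Irf7 followed the order of the arrays in the beta-actin difference closely. The 3 arrays with the smallest difference, baculovirus replicates 1 and 3 and PBS replicate 4, were also the 3 with the highest Irf7. Baculovirus replicate 4 and PBS replicate 2, with the largest differences, had the lowest Irf7. The GAPDH difference was also lowest on baculovirus replicates 1 and 3 and PBS replicate 4. It was highest on PBS replicate 1 and baculovirus replicate 2, not on the arrays with the lowest Irf7. The part of RNA quality or labelling in the Irf7 values was not tested. With the beta-actin difference as a covariate, an alternative added after the data had been seen, the log2 fold change was 0.31 ± 0.23 (SE, limma adjusted p = 0.784).

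The spread of Irf7 was extreme among the measured transcripts. Its SD within groups was 1.12 log2 units, 1.45 among baculovirus arrays and 0.66 among PBS arrays, where the median over tested probe sets was 0.15. This ranked 10 of 18625. The highest array stood 11.7-fold above the lowest within the baculovirus group and 2.86-fold within the PBS group.

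**Figure D2:**
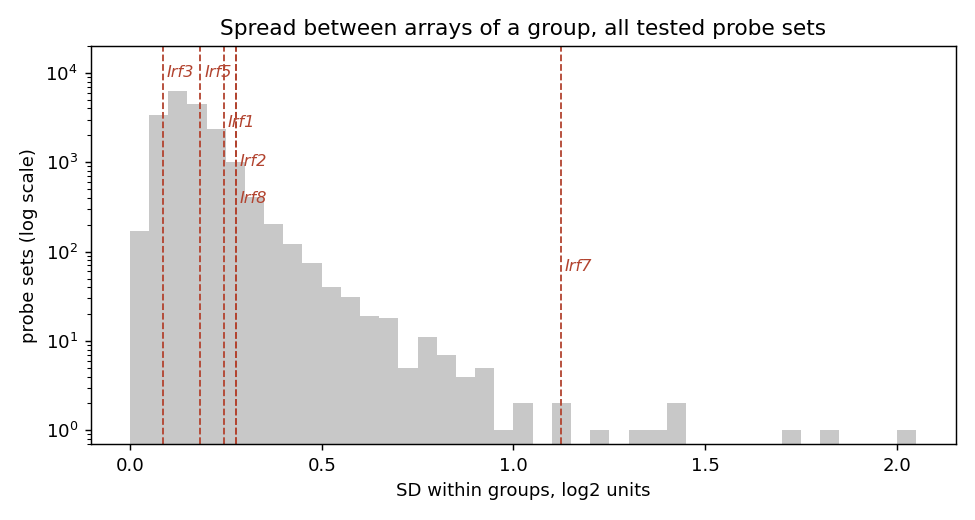
Number of tested probe sets (y axis, log scale) by SD within groups in log2 units (x axis, bins of 0.05), with dashed lines at the 6 members. Irf3 lies at 0.085, the other members apart from Irf7 between 0.18 and 0.28, and Irf7 at 1.12.

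The sequence upstream of Irf7 shows the type of element through which interferon is known to act on this gene. RefSeq promoter sequences of the GRCr8 assembly were found for 5 of the 6 members, all but Irf2. The 250 bases before the annotated start of Irf7, chr1:205800024-205800273 on the minus strand, are printed with the match in capitals. The letters searched were GAAANNGAAA on both strands, which read TTTCNNTTTC on the other strand.

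Irf7 upstream: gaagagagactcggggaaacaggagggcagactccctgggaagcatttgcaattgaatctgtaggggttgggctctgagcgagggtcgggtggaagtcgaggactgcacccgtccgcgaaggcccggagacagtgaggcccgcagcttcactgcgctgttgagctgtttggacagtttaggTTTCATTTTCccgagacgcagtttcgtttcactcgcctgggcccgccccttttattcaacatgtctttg

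The match starts at position -69 relative to the start, and Irf7 was the 1 member of 5 with one. Of all 33469 promoters in the table, 3.41% held this element in the same 250 bases. Among antiviral target genes of Irf3 and Irf7 with a probe set, 10 of 16 had a promoter entry, and 7 of these 10 held it. In Oas1a and Oas1b a pair of matches overlap. Windows of 30 bases are shown for Irf7 and for 4 of these targets to let the elements be compared, with the matched letters in capitals and each read in the direction of its gene.
Irf7, chr1:205800073-205800102, minus strand: acagtttaggTTTCATTTTCccgagacgca
Rsad2, chr6:48788248-48788277, minus strand: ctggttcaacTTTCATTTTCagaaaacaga
Ifit3, chr1:241527272-241527301, plus strand: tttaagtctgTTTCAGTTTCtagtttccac
Ifi44, chr2:243303847-243303876, minus strand: gcacactgagTTTCAGTTTCatttcccagg
Isg20, chr1:142239957-142239986, plus strand: taatgaaccaGAAACTGAAActaaaacggc
A match is a description of these letters and was not tested as a binding site.

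Irf1, an activator of antigen presentation and guanylate-binding protein genes, had intensities of 118, 90.4, 93.2 and 63.7 on baculovirus replicates 1 to 4. PBS replicates 1 to 4 had 78.1, 68.3, 83.9 and 93.6. The order resembled that of Irf7, with baculovirus replicate 1 highest and baculovirus replicate 4 lowest of all 8 arrays. The baculovirus arrays averaged 91.3 ± 22.1 and the PBS arrays 81.0 ± 10.6 (SD, n = 4 each). For Irf1 the log2 fold change came to 0.13 (95% interval -0.18 to 0.44, limma adjusted p = 0.874). It was 0.01 without baculovirus replicate 1 and 0.26 without baculovirus replicate 4.

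Irf8, a myeloid factor needed for microglial development, had intensities of 81.6, 60.1, 75.3 and 43.0 on baculovirus replicates 1 to 4. It had 48.6, 54.1, 60.01 and 75.6 on PBS replicates 1 to 4. The same arrays as for Irf1 and Irf7, baculovirus replicates 1 and 4, were the highest and the lowest. For Irf8 the log2 fold change came to 0.09 (95% interval -0.25 to 0.43, limma adjusted p = 0.932), and it turned to -0.01 without baculovirus replicate 1. In tissue RNA, a change in the number of cells of a type and in RNA per cell cannot be told apart.

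Irf5, a factor of myeloid cells that acts below Toll-like receptors, had intensities of 55.4, 48.2, 45.0 and 39.3 on baculovirus replicates 1 to 4. PBS replicates 1 to 4 had 32.5, 39.0, 33.2 and 50.4. All 4 baculovirus arrays were above the PBS mean, and PBS replicate 4 was above 3 of them. The baculovirus arrays averaged 47.0 ± 6.74 and the PBS arrays 38.8 ± 8.27 (SD, n = 4 each). For Irf5 the log2 fold change came to 0.21 (95% interval -0.07 to 0.48), and the limma adjusted p of 0.775 was the smallest among the members. Without PBS replicate 4 it was 0.30 (limma adjusted p = 0.437), and without baculovirus replicate 1 it was 0.14.

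Irf3, the constantly made sensor-activated factor, had intensities of 151, 175, 158 and 177 on baculovirus replicates 1 to 4. PBS replicates 1 to 4 had 152, 154, 169.7 and 160.4. Here baculovirus replicate 4 was the highest array and baculovirus replicate 1 the lowest, the reverse of Irf1, Irf7 and Irf8. Its log2 fold change of 0.05 had the narrowest interval of the family, -0.13 to 0.23 (limma adjusted p = 0.928). Its SD within groups of 0.085 was at or above that of 10.5% of tested probe sets, and that of Irf7 at or above 99.95% of them.

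Irf2, which can oppose Irf1, was read by 3 probe sets that differ in brightness. The brightest had intensities of 52.3, 35.1, 32.2 and 23.5 on baculovirus replicates 1 to 4 and 29.1, 41.3, 47.0 and 33.5 on PBS replicates 1 to 4. It was the 1 member with a lower mean after inactivated baculovirus, at a log2 fold change of -0.07 and a 95% interval of -0.42 to 0.28 (limma adjusted p = 0.954). The direction turned to 0.05 without baculovirus replicate 4 and to 0.01 without PBS replicate 3. The other Irf2 probe sets were below the level for testing, at 2.62 to 3.34 against 2.19 to 3.66 and at 1.24 to 2.77 against 0.709 to 2.77 after inactivated baculovirus and PBS. Their groups overlapped, with exact two-sided permutation p = 0.857 and 0.571, where the smallest p that 4 against 4 arrays allow is 0.0286.

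**Figure D3:**
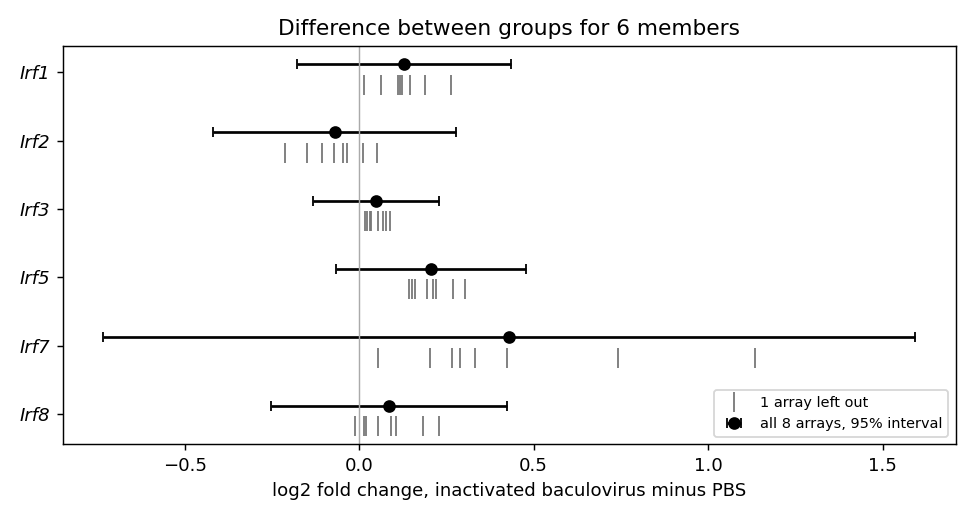
Log2 fold change, inactivated baculovirus minus PBS (x axis), of the tested probe set of each member. Points with bars are the limma estimates from all 8 arrays with 95% intervals, and ticks are the estimates with 1 array left out. All 6 intervals include 0, and the ticks of Irf7 run from 0.05 to 1.13.

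Across the 8 arrays, Irf1, Irf7 and Irf8 varied together. Pearson's r on the log2 scale was 0.93 for Irf1 with Irf7, 0.90 for Irf1 with Irf8 and 0.90 for Irf7 with Irf8. Irf5 had r of 0.71, 0.72 and 0.74 with Irf1, Irf7 and Irf8. Irf3 had a negative r with each of the other 5 members, between -0.50 and -0.12. These values describe 8 arrays that share labelling and RNA quality differences, and 1 array with high or low values for several genes weighs on all of them.

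The 3 genes most like each member were taken by Pearson's r over the 8 arrays among 10538 other genes. For Irf7 they were Lgals3bp, a secreted glycoprotein, at 0.978, the ubiquitin-like antiviral protein Isg15 at 0.973 and Erap1, an aminopeptidase that trims peptides for class I molecules, at 0.969. For Irf1 they were the interferon-inducible GTPase Irgm2 at 0.988, the nuclear body protein Sp110 at 0.983 and Glipr1 at 0.981. For Irf8 they were the leukocyte actin bundler Lcp1 at 0.972, the antiviral GTPase Mx1 at 0.970 and Dock8, a leukocyte exchange factor, at 0.970. For Irf5 they were the substance P receptor Tacr1 at 0.986, Wdr59 at 0.970 and the antiviral protein Oasl at 0.970. For Irf2 they were Tmem123 at 0.971, the peroxisomal enzyme Hsd17b4 at 0.963 and Pabir2 at 0.956. For Irf3 they were the mitochondrial deacylase Sirt5 at 0.964, the tubulin Tubb4b at 0.963 and C2h1orf52 at 0.954. None of these 18 genes passed in limma, with log2 fold changes between -0.13 and 0.53.

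Antiviral genes known as targets of Irf3 and Irf7 had a higher mean for 13 of 13 tested members and a lower one for 0, with a median log2 fold change of 0.45. Of these, 3 were under an unadjusted p of 0.05 with a higher mean, where 2.51% of all tested probe sets were, and 0 passed in limma. The level for testing used the mean of both groups, and on its PBS arrays alone Ifi44 would have fallen under it. Its higher mean is therefore not separate from its being tested. Of the targets below the level, Isg20 and Oas1b had a higher mean and Herc6 a lower one, at 9.06 against 9.43. Ifit3, an inhibitor of viral translation, had 198, 82.0, 106 and 25.6 on baculovirus replicates 1 to 4 and 31.5, 31.7, 25.2 and 72.7 on PBS replicates 1 to 4. Its log2 fold change was 0.92 ± 0.38 (SE), that of Oasl 0.53 ± 0.17 and that of the chemokine Ccl5 0.73 ± 0.30. Isg15 measured 283, 167, 162 and 49.0 on baculovirus replicates 1 to 4 and 115, 83.4, 112 and 194 on PBS replicates 1 to 4. Baculovirus replicate 1 was the highest array for all 13 genes and baculovirus replicate 4 the lowest for 7, the same arrays as for Irf7. Without baculovirus replicate 1 the median was 0.14 with 1 gene under the unadjusted level. Without baculovirus replicate 4 it was 0.81 with 12, and without PBS replicate 4 it was 0.60 with 6. Over all 18625 tested probe sets, 1357, 1134 and 1957 were under that level without these arrays, in this order. Without any other single array 1 to 3 genes were under that level, and by the methods' t-test 0 were. The arrays with the largest and the smallest beta-actin difference, baculovirus replicates 4 and 1, had the lowest and the highest mean of the list. With that difference as a covariate the median was 0.36 with 6 genes under the unadjusted level, where 1361 of 18625 tested probe sets were. The part of RNA quality or labelling in the result was not tested.

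**Figure D4:**
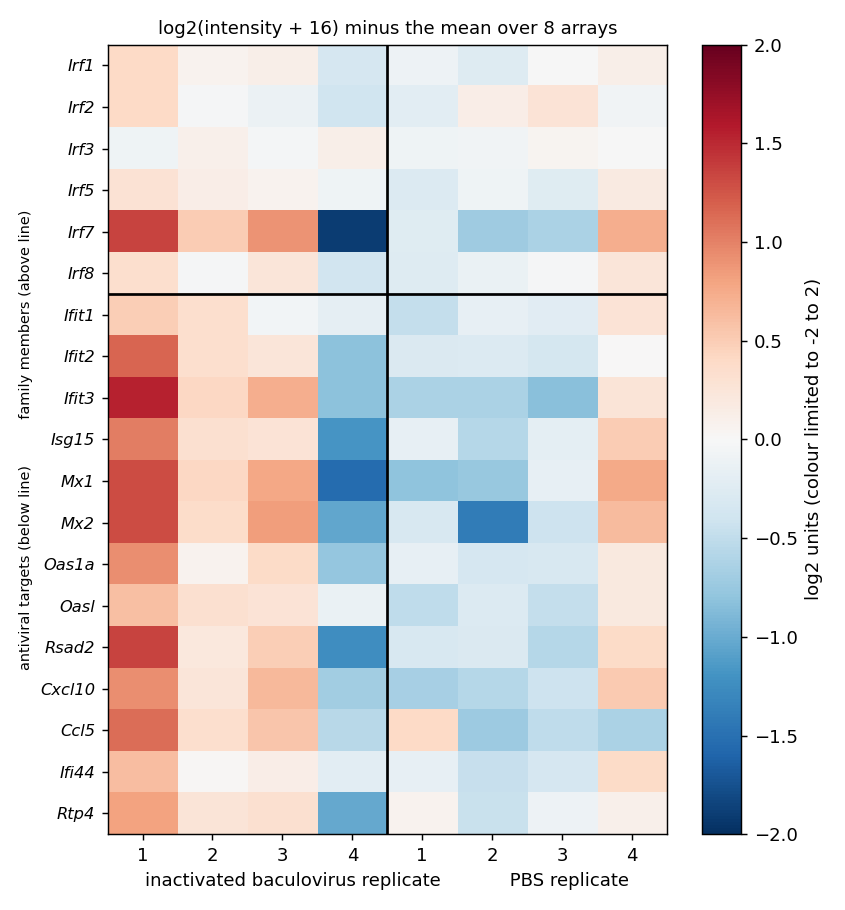
Log2(intensity + 16) minus its mean over the 8 arrays (colour, limited to -2 to 2) for 6 members above the line and 13 antiviral targets below it, with baculovirus replicates 1 to 4 at the left and PBS replicates 1 to 4 at the right. Baculovirus replicate 1 is the highest array for all 13 targets, and Irf7 and most targets are lowest on baculovirus replicate 4.

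Genes known to depend on Irf1, mostly of antigen processing, had a higher mean for 10 of 12 tested members and a lower one for 2, with a median log2 fold change of 0.16. None passed in limma and 0 were under an unadjusted p of 0.05. On their PBS arrays alone, Tap2 and Il15 would have fallen under the level for testing. Their place among the 10 is thus not separate from the filter. Below the level, Tap1 and Nlrc5 had a higher mean and Nos2 a lower one. Without baculovirus replicate 4 the median was 0.26 with 4 genes under the unadjusted level, and without baculovirus replicate 1 it was 0.08 with 0. Without PBS replicate 2 it was 0.10 with 0, and with the beta-actin covariate it was 0.14 with 2. Of 18625 tested probe sets, 1134 were under that level without baculovirus replicate 4 and 1361 with the covariate. Psmb9, a subunit of the immunoproteasome, averaged 167 ± 74.3 on baculovirus arrays and 114 ± 33.8 on PBS arrays (SD, n = 4 each). Tapbp, which loads peptides on class I molecules, averaged 68.7 ± 21.04 on baculovirus arrays and 53.7 ± 2.72 on PBS arrays, and the guanylate-binding protein Gbp2 had a log2 fold change of 0.51 ± 0.35 (SE).

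Of 5 tested sensors all 5 had a higher mean, with a median log2 fold change of 0.12, led by the DNA sensor Zbp1 at 0.34 ± 0.20, the RNA signalling adaptor Mavs at 0.16 ± 0.13 and Tlr2 at 0.12 ± 0.12 (SE). Among sensors below the level for testing, Ifih1 and Tlr4 had a higher mean and Dhx58 and Tlr7 a lower one. The tested sensors were 4 higher and 1 lower under quantile normalization or median centring, and 3 higher and 2 lower without baculovirus replicate 1. Adaptors and kinases had 4 of 10 higher and 6 lower, with a median of -0.01. The kinase Chuk was the 1 of these 10 under an unadjusted p of 0.05 with a lower mean, where 4.22% of tested probe sets were. Tbk1, the kinase that phosphorylates Irf3 and Irf7, had 235, 220, 230.5 and 196 on baculovirus replicates 1 to 4 and 248, 262, 251 and 237 on PBS replicates 1 to 4. The groups did not overlap, as for 2.31% of tested probe sets with lower values after inactivated baculovirus, and the log2 fold change of -0.17 ± 0.08 (SE) did not pass (limma adjusted p = 0.737). Ikbkb, a kinase that partners Chuk in the NF-kB pathway, had groups that did not overlap in the other direction, as for 1.55% of tested probe sets. It lay at 43.1 to 47.6 on baculovirus arrays and 32.7 to 41.5 on PBS arrays. Its log2 fold change of 0.17 ± 0.10 (SE) did not pass (limma adjusted p = 0.772). Chuk itself stood at -0.36 ± 0.11, the receptor kinase Irak1 at -0.14 ± 0.08 and Myd88 at -0.03 ± 0.13. The 3 interferon genes with a probe set, Ifnb1, Ifng and Ifnk, were all below the level for testing, and Ifnb1 averaged 3.82 ± 1.03 on baculovirus arrays and 2.79 ± 1.62 on PBS arrays (SD, n = 4 each).

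The interferon receptors and their relay had 5 of 9 tested members higher and 4 lower, with a median log2 fold change of 0.03, and 0 under an unadjusted p of 0.05. The median turned to -0.03 without baculovirus replicate 1 and to -0.02 without PBS replicate 2, and it was 0.07 without PBS replicate 1. It was 0.01 without baculovirus replicate 3 or PBS replicate 4. Without baculovirus replicate 4, 2 genes went under the unadjusted level, where 1134 of 18625 tested probe sets were. Irf9, the DNA-binding part of the complex that carries the type I signal to the nucleus, had 175, 117, 139 and 70.6 on baculovirus replicates 1 to 4 and 111, 98.9, 110.2 and 134 on PBS replicates 1 to 4. Its brighter probe set stood at 0.08 ± 0.19 and the other at 0.22 ± 0.19 (log2 fold change ± SE). Baculovirus replicates 1 and 4 were the highest and the lowest array for both, as for Irf1, Irf7 and Irf8. Stat2, its partner, stood at 0.20 ± 0.14, the receptor chain Ifnar1 at 0.19 ± 0.12 and Ifnar2 at 0.13 ± 0.12.

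Partners and brakes of the family had 5 of 6 tested members higher and 1 lower, with a median of 0.11. Usp18, which removes Isg15 from proteins and dampens the interferon receptor, measured 234, 108, 138 and 39.8 on baculovirus replicates 1 to 4 and 58.1, 53.4, 64.4 and 103 on PBS replicates 1 to 4. Its log2 fold change was 0.61 ± 0.34 (SE), the largest of this list, and the groups overlapped through baculovirus replicate 4, while the other 3 baculovirus arrays were above all PBS arrays. Irf2bp2, a corepressor that binds Irf2, stood at 0.20 ± 0.14 and Rbck1 at 0.16 ± 0.10. Without baculovirus replicate 4 this list had 3 higher and 3 lower.

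Genes that Irf8 and PU.1 are known to drive in microglia had 10 of 12 tested members higher and 2 lower, with a median log2 fold change of 0.14. The fractalkine receptor Cx3cr1 measured 58.8, 60.6, 56.0 and 57.2 on baculovirus replicates 1 to 4 and 37.3, 48.9, 54.7 and 48.7 on PBS replicates 1 to 4. Its groups did not overlap, as for 1.55% of tested probe sets with higher values after inactivated baculovirus, and its log2 fold change of 0.23 ± 0.11 (SE) did not pass (limma adjusted p = 0.737). P2ry12, a receptor of resting microglia, stood at -0.26 ± 0.13 and the signalling adaptor Tyrobp at 0.22 ± 0.14. Without PBS replicate 2 this list had 6 higher and 6 lower, with a median of 0.01.

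Markers of cells that carry these factors were read on the same arrays. The 12 microglia markers with a probe set summed to intensities of 2247 to 3176 on baculovirus arrays and 1951 to 3010 on PBS arrays, with 11 higher and 1 lower in mean. Of these 12 markers 8 are also in the list of Irf8 and PU.1 targets, so that the counts of these lists are not separate. The 10 monocyte and macrophage markers summed to 882 to 1625 on baculovirus arrays and 810 to 1500 on PBS arrays, and 4 of them were bright enough to test, 3 with a higher and 1 with a lower mean. The lower one, the matrix protein Vcan, stood at -0.36 ± 0.12 (log2 fold change ± SE). It was the 1 tested marker of this list under an unadjusted p of 0.05, where 4.22% of tested probe sets were with a lower mean. Lyz2 made up most of the monocyte and macrophage sums, at 738 to 1199 on baculovirus arrays and 620 to 1245 on PBS arrays. It is also in the list of Irf8 and PU.1 targets. Lyz2 stood at 0.13 ± 0.18, with its highest value on PBS replicate 4, and Mrc1 at 0.06 ± 0.13. Of 12 T and NK cell markers 1, Cd4, was bright enough to test, and on its PBS arrays alone it would have fallen under the level. Cd4 was not under an unadjusted p of 0.05. The 12 summed to 173 to 221 on baculovirus arrays and 125 to 187 on PBS arrays. The other tested monocyte marker, Ly6c, had 214, 109, 122 and 16.5 on baculovirus replicates 1 to 4 and 27.4, 32.6, 22.5 and 93.9 on PBS replicates 1 to 4, highest and lowest on the same arrays as Irf7. No marker was at exactly 0, and the part of cell numbers in the values of Irf5, Irf7 and Irf8 was not tested.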

How the data were processed

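The files hold 8 Affymetrix Rat Genome 230 2.0 arrays, scanned with GCOS per the submitters' processing notes. The deposited intensity values are linear. GCRMA is named in the same notes, and normalized GeneSpring data are marked as not provided per the labels. The algorithm behind the deposited intensity values is therefore not named. After trimming 2% of values at each end, the mean was 99.9995 or 99.9996 on every array, while array medians differed. The deposited values were thus scaled array by array to a common trimmed mean. Labelling used either of a pair of kits, and the labels do not say which array had which.

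Of 31099 probe sets, 57 controls were left out. A single symbol is given for 20826, several for 436 and none for 9780, and RefSeq changed 0 of the symbols. A listed gene was represented by its brightest single-symbol probe set. Intensities became log2(intensity + 16), a scale that understates fold changes of dim probe sets. Those above the 40th percentile of the mean were compared in limma 3.58.1 under R 4.3.3 (two-sided eBayes, variance trend, no block). P-values were adjusted by Benjamini-Hochberg over these 18625 probe sets, with a threshold of 0.05. The median 95% interval reached 0.231 to either side, a precision limited by the number of arrays. The fit was tested on simulated data.

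The members and lists were chosen with earlier results of these data known. Named genes are the members, Irf9, the 3 genes of each list with the smallest p, a fixed set (among them Ifnb1, Ifit3, Isg15, Irf9, Tbk1, Myd88 and Spi1) and the 3 genes most like each member. Ly6c, Lyz2, Mrc1, Vcan, Ikbkb, Cd3d, Ppp1r1b, Irf2bp1, Irf2bpl, Ttr, Hbb and Gh1 fall outside this rule and were named after their values were seen. So do Cd4, Ifi44, Tap2, Il15 and, apart from Ifnb1, the listed genes named as below the level for testing. Spi1 was not analysed here. Some items are not reported here. Alternatives were pseudocounts of 1 and 64, normalization by quantiles or by median centring, the level filter removed or set at the 60th percentile, eBayes without trend or robust, array weights, the t-test of the methods, the replicate number as a block, and leaving out each array. The beta-actin covariate was added after the data had been seen.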

Additional observations from a re-analysis of the deposited data

Results flagged for a closer look

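A closer look covered 66 probe sets, taken from those named in the text or chosen with them, each in both groups. In 8 of 132 groups 1 array was far from the other 3, where chance gives about 1 in 20. Some of these probe sets were named because of their spread, so the share cannot be read against chance. The interferon receptor chain Ifnar1 was lowest on baculovirus replicate 3, at 47.5 against 60.4 to 63.1 on the others of that group. It was also lowest on PBS replicate 3, at 35.99 against 52.4 to 56.3. The Irf2-binding corepressor Irf2bp2 was lowest on PBS replicate 3, at 93.0 against 146 to 158. Erap1, one of the genes most like Irf7, was highest on PBS replicate 4, at 190.2 against 143 to 149.7. Irf2bp1 was highest on PBS replicate 4, at 149.8 against 78.1 to 85.0. The macrophage marker Mrc1 was lowest on baculovirus replicate 2, at 26.5 against 32.9 to 34.03. The choroid plexus marker Ttr was lowest on PBS replicate 4, at 47.7 against 1787 to 1888. The growth hormone gene Gh1 was highest on baculovirus replicate 2, at 1426 against 7.10 to 22.3.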

How the results depend on the processing

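No probe set and no member passed under any of the 20 alternatives, and the median log2 fold change of the members lay between 0.03 and 0.25 with 1 array left out. Irf1, Irf3, Irf5 and Irf7 kept their direction in every alternative in which they were tested. With 1 array left out, Irf2 ran from -0.212 to 0.0514, positive if baculovirus replicate 4 was omitted and also, at 0.0113, if PBS replicate 3 was. Irf8 ran from -0.0124 to 0.2297, negative if baculovirus replicate 1 was omitted. With the level filter at the 60th percentile, 3 of the 6 members were tested, and members with a higher mean numbered 1 sensor, 7 antiviral targets and 5 Irf1 targets, since fewer genes were tested. With 1 array left out, the number with a higher mean ran from 3 to 5 for sensors, 3 to 7 for adaptors and kinases, 4 to 7 for receptors and relay, 3 to 5 for partners and brakes, 11 to 13 for antiviral targets, 9 to 11 for Irf1 targets and 6 to 11 for Irf8 targets. The cause of these moves was not tested. Arrays of the same replicate number did not deviate together over the tested probe sets as a whole (r between -0.005 and 0.016). Of the baculovirus arrays, 0 of 4 correlated best with its own number, and the main fit took the number as a name only. Single probe sets did match by number, among them Hbb and several without a symbol, with values given under the other observations. The correlation over all tested probe sets therefore cannot decide whether a number marks an animal, and the labels do not say. With the number as a replicate block, 0 probe sets passed, and Irf7 stood at 0.43 ± 0.53 (SE, limma adjusted p = 0.916).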

Other observations

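Irf2bp1, a corepressor that binds Irf2, had intensities of 78.9, 88.4, 106 and 140 on baculovirus replicates 1 to 4 and 83.5, 78.1, 85.0 and 149.8 on PBS replicates 1 to 4, so that replicate 4 was the highest array of each group. Irf2bpl was nearly level, at 316 to 332 on baculovirus arrays and 314 to 363 on PBS arrays.

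Only 9 of the tested probe sets varied more within groups than Irf7, and 3 of these have a single symbol. They were looked at after their values were seen. Gh1, which encodes growth hormone, reached 1426 on baculovirus replicate 2, where the remaining arrays lay at 7.10 to 22.3. Hbb, a red cell haemoglobin, was at 86.3, 430.3, 73.7 and 735 on baculovirus replicates 1 to 4 and 63.3, 115, 46.6 and 488 on PBS replicates 1 to 4. It was highest on replicate 4 of both groups, the arrays on which Irf7 was lowest and highest in its group. The third was Ttr, which was low on PBS replicate 4 alone. The remaining probe sets above Irf7 had no single symbol. Several of them were, like Hbb, highest on replicate 4 of both groups. The brightest of these had 276, 1021, 211 and 1503 on baculovirus replicates 1 to 4 and 190, 305, 125 and 1277 on PBS replicates 1 to 4. A further pair were alike between arrays of the same number. The brighter of them had 416, 186, 386 and 61.0 on baculovirus replicates 1 to 4 and 469, 179, 409.7 and 55.2 on PBS replicates 1 to 4. The other had 62.4, 172, 276 and 56.2 on baculovirus replicates 1 to 4 and 63.4, 296, 344 and 53.2 on PBS replicates 1 to 4.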
